A study of Homo sapiens with 2 samples.

Results

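The genes described here make Wnt proteins and help to secrete them. They are 7 Wnt ligand genes and 2 genes of ligand secretion, taken by name from a list and matched to the Entrez identifiers in the deposited tables. The ligands are WNT2 (gene 7472), WNT2B (7482), WNT3 (7473), WNT5A (7474), WNT5B (81029), WNT7B (7477) and WNT9B (7484), and the secretion genes are WLS (79971) and PORCN (64840). All 9 were listed in both libraries, out of 19316 genes listed in either. The cells were SNU449, an established line from a human liver cancer, and polyadenylated RNA was sequenced 7 days after lentiviral transduction. There were 2 libraries. One came from cells given an FZD2 shRNA, a short hairpin RNA against the Wnt receptor gene FZD2, which the labels call FZD2 deficiency, and the other from cells given a negative control shRNA. Both groups therefore carried a lentiviral hairpin. The sources used here do not give the hairpin sequences. With 1 library per group there is no replicate error, no test of the conditions and no p-value, and every difference is between these libraries.

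Wnt proteins are secreted signals that act mostly on nearby cells. In the endoplasmic reticulum the acyltransferase PORCN attaches a fatty acid to each ligand, and the carrier protein WLS then takes the lipid-bearing ligand to the cell surface and is itself recycled. Frizzled receptors bind that lipid. Some ligands act mainly through beta-catenin, and others, with WNT5A as the usual example, mainly through beta-catenin-independent routes. In liver, Wnt signals pattern the lobule and take part in regeneration, and the pathway is often altered in liver cancer.

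Levels are given as FPKM, which is reads per kilobase of gene length, scaled by the authors to library size. Differences are log2 ratios of FPKM + 1, FZD2 shRNA over control, so the ratio of a gene near 1 FPKM is drawn towards 0. Count log2 ratios use the expected counts divided by the library totals, and their 95% intervals cover counting error only. The libraries held 8234592 expected counts (FZD2 shRNA) and 8436870 (control). FZD2 itself was at 15.76 FPKM with the FZD2 shRNA and 59.45 FPKM in the control, a log2 ratio of -1.85, which was the direction of the labels. Its expected counts, 503.28 with the FZD2 shRNA and 1949.91 in the control, were not whole, so reads may have been split with other genes. Of 10 hepatocyte markers, 2 were measured (FGG and FGB), while APOB and TTR were listed in neither library and ALB had 1 read in all, and the 10 summed to 230 FPKM with the FZD2 shRNA and 194 FPKM in the control. The cell type label says liver and the growth protocol says prostate. Among prostate markers, PSCA was at 5.46 FPKM with the FZD2 shRNA and 4.67 FPKM in the control, and KLK3, KLK2 and TMPRSS2 were unlisted. Markers of other liver cell types were mixed. The 7 stellate cell and fibroblast markers summed to 339 FPKM with the FZD2 shRNA and 431 FPKM in the control, with 3 measured (COL1A1, COL1A2 and RGS5), and PDGFRB, LUM and DCN stayed below 0.5 FPKM in both. The 6 macrophage markers summed to 94.2 FPKM with the FZD2 shRNA and 27.7 FPKM in the control with 4 measured, mostly LYZ and CD68 (both with counts that were not whole), whereas CD163 and CSF1R were unlisted. The 6 endothelial markers summed to 2.63 FPKM with the FZD2 shRNA and 0.66 FPKM in the control, with PECAM1 the 1 measured and VWF and LYVE1 unlisted. Both libraries are labelled SNU449, and these marker levels alone do not show that other cell types were present. The source of the marker reads, and any part of it in the values below, was not tested. In bulk RNA fewer cells of a type and less RNA per cell cannot be told apart.

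WNT5B and WNT7B, the ligands above 10 FPKM, and the scarce WNT9B were higher with the FZD2 shRNA, and WNT2, WNT2B, WNT3, WNT5A, WLS and PORCN were all lower. By size, 2 of the 9 genes (WNT5B and WNT9B) were at least 2-fold higher, against 15.2% of all 14377 measured genes, those with at least 1 FPKM in either library. A single gene (WNT3) was at least 2-fold lower, against 7.41% of measured genes. By the 95% counting interval of the count ratio, 3 of the 9 lay wholly above 0, against 35.5% of measured genes, and 5 lay wholly below 0, against 36.8%. With 9 genes, counts this close to those shares are not read as a feature of the list. The background itself moved with the GC content of the genes, with 2949 higher and 348 lower once that trend was taken out, beside 2190 higher and 1066 lower before. It was 342 higher and 835 lower over genes called free of shared reads here because their counts were whole in both libraries. WNT2B and WNT3 reached 1 FPKM in the control library alone. The median log2 ratio of the 9 was -0.52, beside a median of 0.00 over all measured genes and -0.25 over those with whole counts, as 7 of the 9 had. With the GC trend taken out, the median of the 9 was -0.10, beside 0.23 over all measured genes. That trend was fitted to genes with whole counts only.

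**Figure D1:**
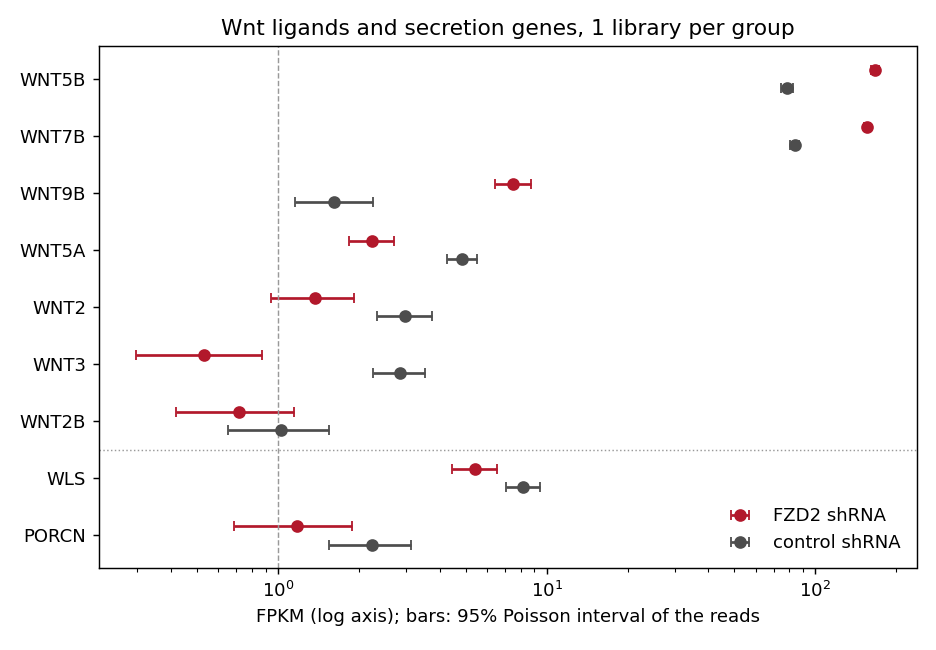
FPKM of each gene on a log axis, with the FZD2 shRNA library in red above the control shRNA library in grey; bars are 95% Poisson intervals of the reads, and the dashed line marks 1 FPKM. WNT5B and WNT7B lie far above the other genes in both libraries, at 166.85 and 155.50 FPKM with the FZD2 shRNA, against 78.72 and 83.71 FPKM in the control.

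**Figure D2:**
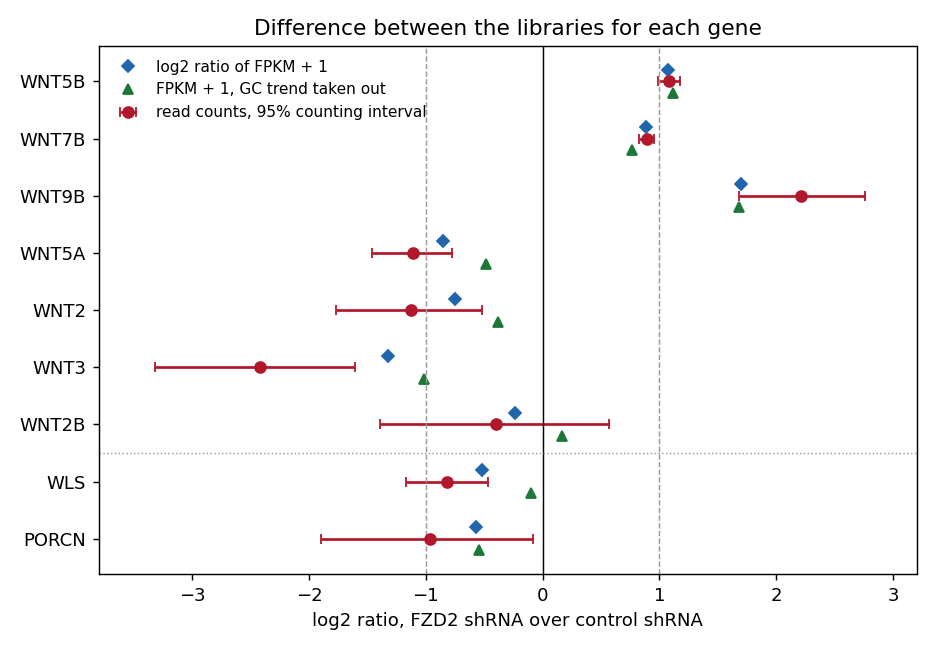
Log2 ratio of FZD2 shRNA over control for each gene, from read counts with 95% counting intervals (red), from FPKM + 1 (blue) and from FPKM + 1 with the GC trend taken out (green); dashed lines mark 2-fold. The interval of WNT2B spans 0, from -1.40 to 0.57, while those of the other 8 genes do not.

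WNT5B, a ligand of the beta-catenin-independent class, was at 166.85 FPKM with the FZD2 shRNA and 78.72 FPKM in the control. Its expected counts of 3013 with the FZD2 shRNA and 1460 in the control were whole, which leaves no sign of reads split with other genes, and their count log2 ratio was 1.08 (0.99 to 1.17). The log2 ratio of FPKM + 1 was 1.07. Among measured genes whose counts were whole, 4.19% were at least 2-fold higher and 10.2% at least 2-fold lower. Their median log2 ratio was -0.25. WNT5B stood at percentile 97.2 of measured genes in the FZD2 shRNA library and at percentile 93.9 in the control.

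WNT5B has 2 transcripts in the tables, NM_030775 and NM_032642, which begin at different promoters. The deposited length was 2184 bases in both libraries. That is the length of NM_030775 in GENCODE release 29 and not the 2303 bases of NM_032642. GENCODE lengths were not always the deposited ones. The only transcript listed for WNT3 has 3355 bases there, against a deposited 3385. The match therefore does not settle which WNT5B transcript or promoter was used. The 250 bases before each RefSeq start are printed so that the start matching the deposited length can be set beside the other one. They lie at chr12:1616806-1617055 and chr12:1628981-1629230, both on the plus strand of GRCh38.p14. Capitals mark GC boxes (GGGCGG) and TATA boxes (TATAAA) on either strand.
WNT5B, NM_030775 start: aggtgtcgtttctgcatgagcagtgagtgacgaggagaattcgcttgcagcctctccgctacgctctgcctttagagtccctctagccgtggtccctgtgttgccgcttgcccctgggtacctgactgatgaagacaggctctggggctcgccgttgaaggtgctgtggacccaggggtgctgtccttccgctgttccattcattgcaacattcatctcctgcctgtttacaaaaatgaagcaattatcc
WNT5B, NM_032642 start: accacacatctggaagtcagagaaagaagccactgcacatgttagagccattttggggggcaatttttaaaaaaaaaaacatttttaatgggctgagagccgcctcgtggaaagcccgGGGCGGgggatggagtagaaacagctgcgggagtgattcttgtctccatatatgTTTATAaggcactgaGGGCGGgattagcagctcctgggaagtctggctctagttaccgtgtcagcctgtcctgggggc
The window before the NM_030775 start held neither motif. Before the other start there were 2 GC boxes and 1 TATA box, on the minus strand 78 bases before the start. GC boxes were in 42.6% and TATA boxes in 10.7% of all 35116 RefSeq windows of this length. The sites bound by TCF and LEF factors, the DNA-binding partners of beta-catenin, were also searched on both strands, with the letters CTTTGAA or the letters CTTTGAT, and likewise with the letters CTTTGTA or the letters CTTTGTT. None of the 13 windows of the 8 genes in the promoter table held one, against 12.0% of all windows. WNT7B had no window there, and the windows of WLS overlap each other. With so few windows, this lack is not read as a feature of the list. A match, or its lack, describes these letters only.

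WNT7B, which signals through beta-catenin in several developing tissues, was at 155.50 FPKM with the FZD2 shRNA and 83.71 FPKM in the control. The expected counts were 5088.51 with the FZD2 shRNA and 2813.68 in the control, the most reads of the 9 genes. The count log2 ratio was 0.89 (0.82 to 0.96) and the log2 ratio of FPKM + 1 was 0.89, short of 2-fold. Neither count was whole, so reads may have been split with other genes, to an extent that was not measured. In TPM, another scaling in which the median over all genes moves by 0.14, WNT7B reached 1.05.

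WNT5A, the close relative of WNT5B, went the other way at a far lower level. It was at 2.24 FPKM with the FZD2 shRNA (106 reads) and 4.85 FPKM in the control (235 reads). The count log2 ratio was -1.11 (-1.46 to -0.78) and the log2 ratio of FPKM + 1 was -0.85. Read per length, WNT5B was 74.5 times the level of WNT5A with the FZD2 shRNA and 16.2 times in the control.

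WNT9B and WNT3 are neighbours on chromosome 17 and differed in opposite directions. WNT9B, known in the mouse for its part in kidney tubule formation, was at 7.52 FPKM with the FZD2 shRNA and 1.62 FPKM in the control, from expected counts of 165.52 with the FZD2 shRNA and 36.55 in the control. Its count log2 ratio was 2.21 (1.68 to 2.76) and its log2 ratio of FPKM + 1 was 1.70, or 0.92 with a pseudocount of 5. Neither count was whole, and of measured genes with such counts 29.7% were at least 2-fold higher. The deposited length of 2654 bases in both libraries equals that of NM_001320458 in GENCODE, whereas NM_003396, the other transcript listed, has 1376 bases. As for WNT5B, this match does not settle which transcript was read.

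WNT3, which activates beta-catenin in many tissues, was at 0.53 FPKM with the FZD2 shRNA and 2.84 FPKM in the control. Those values rest on 15 reads with the FZD2 shRNA and 82 reads in the control, all whole. Of measured genes with whole counts, 10.2% were at least 2-fold lower. The count log2 ratio of -2.42 (-3.32 to -1.61) was the lowest of the 9 genes, while the log2 ratio of FPKM + 1 was -1.33. With a pseudocount of 5 it was -0.50, and with the GC trend taken out it was -1.01. NSF, the annotated gene on the other side of WNT3 and a vesicle fusion ATPase, was at 3.70 FPKM with the FZD2 shRNA and 11.32 FPKM in the control, a log2 ratio of -1.39. NSF was named after its values were seen. The annotated span of LRRC37A2 overlaps both Wnt genes, and its counts were not whole.

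The windows before the RefSeq starts of WNT9B and WNT3 are shown because these neighbours were the list's largest differences in either direction. They lie at chr17:46851333-46851582 on the plus strand and chr17:46818693-46818942 on the minus strand of GRCh38.p14, and capitals mark GC boxes on either strand.
WNT9B: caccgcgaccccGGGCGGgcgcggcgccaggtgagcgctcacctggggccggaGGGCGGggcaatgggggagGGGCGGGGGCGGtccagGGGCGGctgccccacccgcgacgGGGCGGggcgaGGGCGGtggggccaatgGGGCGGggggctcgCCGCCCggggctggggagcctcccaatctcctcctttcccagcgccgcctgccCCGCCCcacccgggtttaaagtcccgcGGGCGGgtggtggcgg
WNT3: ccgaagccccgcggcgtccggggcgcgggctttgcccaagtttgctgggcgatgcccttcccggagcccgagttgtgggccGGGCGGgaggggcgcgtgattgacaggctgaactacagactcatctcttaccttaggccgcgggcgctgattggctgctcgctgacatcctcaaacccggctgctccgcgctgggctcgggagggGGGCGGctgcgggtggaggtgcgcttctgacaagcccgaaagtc
The WNT9B window held 11 GC boxes and 81.2% GC, and the WNT3 window held 2 GC boxes and 68.8% GC. Over all windows the median GC content was 58.0%. The WNT5B window at the NM_030775 start was at 54.8%.

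The remaining ligands rested on few reads. WNT2, which in mouse liver is made by sinusoidal endothelial cells, was at 1.37 FPKM with the FZD2 shRNA (33 reads) and 2.98 FPKM in the control (74 reads). Its count log2 ratio was -1.13 (-1.77 to -0.52). On the scale of FPKM + 1 the log2 ratio of WNT2 was -0.75. WNT2B, its relative, was at 0.72 FPKM with the FZD2 shRNA (17 reads) and 1.03 FPKM in the control (23 reads). The count log2 ratio of WNT2B was -0.40 with an interval from -1.40 to 0.57, so no difference was detectable at this depth. Its direction depended on the setting, with a log2 ratio of FPKM + 1 of -0.24, or 0.16 with the GC trend taken out.

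Levels in the control library show which of the 19 human Wnt genes these cells transcribed. WNT7B (83.71 FPKM) and WNT5B (78.72 FPKM) headed the control, and their 95% Poisson intervals, 80.7 to 86.9 and 74.7 to 82.9, overlapped. WNT5A followed at 4.85 FPKM, with an interval of 4.25 to 5.51 apart from its neighbours. Below it, WNT2 (2.98), WNT3 (2.84), WNT10B (2.58), WNT9B (1.62) and WNT2B (1.03) each overlapped the next in that order. WNT10B is the 1 measured ligand outside the list of 9. It was at 1.99 FPKM with the FZD2 shRNA and 2.58 FPKM in the control, with a count log2 ratio of -0.38 (-1.02 to 0.25). Of the other ligands, 6 (WNT1, WNT3A, WNT4, WNT6, WNT10A and WNT11) stayed below 1 FPKM with at most 5.51 expected counts, and 5 (WNT7A, WNT8A, WNT8B, WNT9A and WNT16) were unlisted in both libraries. In the FZD2 shRNA library the intervals of WNT5B and WNT7B did not overlap. There WNT5B (160.9 to 172.9 FPKM) lay above WNT7B (151.3 to 159.8 FPKM). WNT9B came next among ligands at 7.52 FPKM, and WNT3 stood last of the measured ones. The counts of WNT7B were not whole, and its intervals do not cover reads split with other genes.

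Summed over the 19 ligands, the level was 337 FPKM with the FZD2 shRNA and 179 FPKM in the control, a ratio of 1.89. WNT5B and WNT7B together made up 95.6% of that sum with the FZD2 shRNA and 90.9% in the control. WNT5B alone was 49.5% with the FZD2 shRNA and 44.0% in the control, and WNT7B was 46.1% with the FZD2 shRNA and 46.8% in the control. The other 17 ligands summed to 15.0 FPKM with the FZD2 shRNA and 16.3 FPKM in the control. Without WNT9B, the remaining 16 summed to 7.48 FPKM with the FZD2 shRNA and 14.7 FPKM in the control. Among the measured ones of these 17, WNT9B alone was higher with the FZD2 shRNA. The lower sum without WNT9B therefore follows from leaving it out and is not read as a result.

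**Figure D3:**
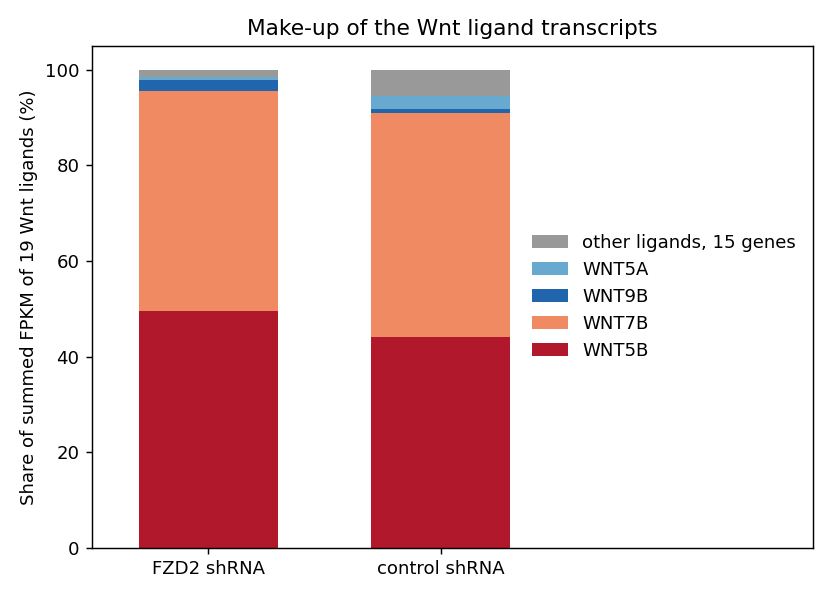
Share of the summed FPKM of the 19 Wnt ligand genes taken by each ligand, in the FZD2 shRNA library (left) and the control shRNA library (right). WNT5B and WNT7B fill 95.6% of the bar with the FZD2 shRNA and 90.9% in the control.

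The secretion genes were far below WNT5B and WNT7B in level, though WLS came next after that pair in the control, and both were lower with the FZD2 shRNA. WLS, the carrier, was at 5.42 FPKM with the FZD2 shRNA (107 reads) and 8.18 FPKM in the control (193 reads). Its count log2 ratio was -0.82 (-1.17 to -0.47), but its log2 ratio of FPKM + 1 was -0.52, and -0.10 with the GC trend taken out. The deposited length of WLS also differed, at 2385.28 bases with the FZD2 shRNA and 2769.5 bases in the control, and FPKM divides by that length. The tables list 3 transcripts of WLS, of 2037, 2332 and 2748 bases in GENCODE. The length in the control exceeds all of these, so GENCODE lengths are not those behind the deposited value. The summed ligand level was 62.2 times that of WLS with the FZD2 shRNA and 21.8 times in the control. PORCN, the acyltransferase, was at 1.18 FPKM with the FZD2 shRNA (17 reads) and 2.24 FPKM in the control (34 reads). The count log2 ratio of PORCN was -0.97 (-1.90 to -0.09), and its log2 ratio of FPKM + 1 was -0.57.

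Other genes of Wnt export were read from lists made by role. Over all measured genes, 15.2% were at least 2-fold higher and 7.41% at least 2-fold lower. With lists this small, counts of genes past 2-fold, here and below, are not read as features of a list. SNX3, a sorting nexin that works with the retromer to return WLS from endosomes, was at 18.06 FPKM with the FZD2 shRNA (260 reads) and 70.58 FPKM in the control (1059 reads). Its log2 ratio of FPKM + 1 was -1.91 (count log2 ratio -1.99, interval -2.19 to -1.79), and it was -1.44 with the GC trend taken out. SNX3 was the 1 of 11 measured WLS recycling genes past 2-fold, and 0 were higher by that size. The list's median was -0.06, or 0.10 in TPM. The retromer subunits VPS35 (0.01), VPS26A (-0.06) and VPS26B (-0.11) had log2 ratios of FPKM + 1 near 0, and VPS29 was at 0.39. With the GC trend taken out, VPS35 was at 0.53, VPS26A at 0.47, VPS26B at 0.01 and VPS29 at 0.91. The median of all measured genes on that scale was 0.23. These 4 were named after their values were seen. The clathrin adaptor subunits AP2S1 and AP2M1 had log2 ratios of 0.71 and -0.36.

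Among the 5 p24 cargo receptors, which carry proteins out of the endoplasmic reticulum, 0 passed 2-fold in either direction and the median log2 ratio was -0.51, or 0.01 with the GC trend taken out. TMED2 was at 46.84 FPKM with the FZD2 shRNA and 74.31 FPKM in the control (-0.65, or -0.14 with the GC trend taken out), and TMED9 had a log2 ratio of -0.52. TMED4, named after its values were seen, was the 1 on the positive side (0.66, or 1.07 with the GC trend taken out). Counts were not whole in 4 of the 5 receptors, TMED4 and TMED9 among them. SCD, the desaturase that makes the monounsaturated fatty acid used by PORCN, was at 64.18 FPKM with the FZD2 shRNA and 116.03 FPKM in the control, a log2 ratio of -0.84, or -0.39 with the GC trend taken out. NOTUM, which removes the lipid, stayed below 1 FPKM. Of these 3 genes of lipid attachment and removal, PORCN and SCD were measured, 0 passed 2-fold and the median log2 ratio was -0.71.

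Outside the cell, binding proteins and antagonists were mixed. Of 16 secreted antagonists, 4 were measured. Of these, 1 was at least 2-fold higher, against 15.2% of all measured genes, and 1 at least 2-fold lower, against 7.41%. The median log2 ratio of the 4 was 0.22. That median was 0.63 with the GC trend taken out and -0.87 over the 2 that passed a filter of 5 FPKM, so its sign depended on the setting. DKK1, which blocks the Wnt co-receptors LRP5 and LRP6, was at 15.78 FPKM with the FZD2 shRNA and 60.80 FPKM in the control. Its log2 ratio was -1.88, or -1.37 with the GC trend taken out. TRABD2A, a protease that cleaves Wnt proteins, was at 4.59 FPKM with the FZD2 shRNA and 1.13 FPKM in the control, a log2 ratio of 1.39, or 0.65 with a pseudocount of 5, and its counts were not whole. SFRP1, a secreted Wnt-binding protein, was at 15.78 FPKM with the FZD2 shRNA and 14.14 FPKM in the control (0.15). Of 8 glypicans and sulfatases, which tune the heparan sulfate that holds Wnt proteins at the surface, 2 were measured and neither passed 2-fold, GPC1 (0.00) and GPC2 (0.08). All 4 R-spondins, which amplify Wnt signals, were below 1 FPKM. Of 6 Wnt receptors other than frizzled, 4 were measured and 0 passed 2-fold, with a median of -0.58, or -0.27 with a pseudocount of 5. RYK, which binds WNT5A, was at 7.72 FPKM with the FZD2 shRNA and 14.11 FPKM in the control (-0.79, or -0.29 with the GC trend taken out). LRP5 was at 4.07 FPKM with the FZD2 shRNA and 5.68 FPKM in the control (-0.40), and ROR1 and ROR2 were below 0.5 FPKM in both.

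**Figure D4:**
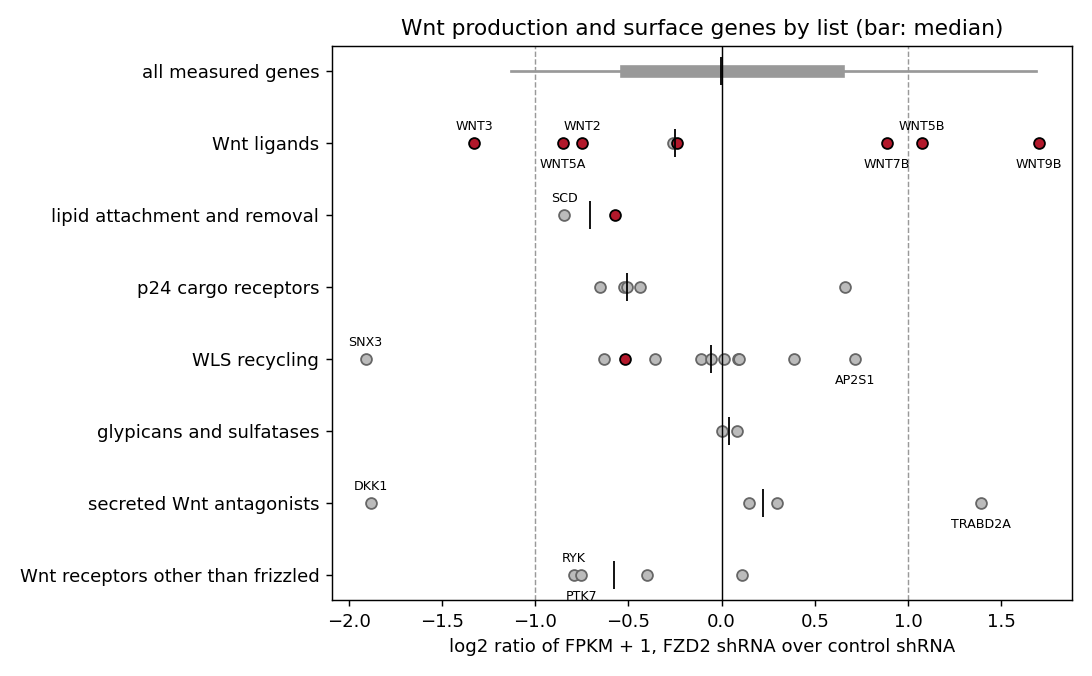
Log2 ratio of FPKM + 1, FZD2 shRNA over control, for the measured genes of each list (points, with the 9 genes described here in red and the list median as a black bar). The top row shows all 14377 measured genes, with a thick bar between the quartiles and a thin line from percentile 5 to percentile 95. SNX3 (-1.91) and DKK1 (-1.88) lie furthest to the left, and WNT9B (1.70) furthest to the right.

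Over genes without shared reads, log2 ratios moved with the GC content of the transcripts, from a median of -0.54 in the lowest of 10 bins to 0.23 in the highest. The 9 genes were spread along that trend. The higher ones, WNT5B (58.3% GC), WNT9B (60.0%) and WNT7B (63.0%), lay where the trend was -0.04 to 0.12, and the lower WLS (48.2%), WNT2B (48.8%), WNT2 (49.7%), WNT5A (49.8%) and WNT3 (51.1%) lay where the trend was -0.42 to -0.31. PORCN, at 58.7% GC, was also lower, and the trend there was -0.03. With the trend taken out, the median of all measured genes lay at 0.23, and genes with shared reads had a median of 0.48 before it was taken out. With the trend taken out, WNT9B (1.68), WNT5B (1.12) and WNT3 (-1.01) were past 2-fold, WNT7B stood at 0.76, WNT5A at -0.49 and WNT2 at -0.38. Beyond that subtraction, the part of GC content in these values was not tested.

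**Figure D5:**
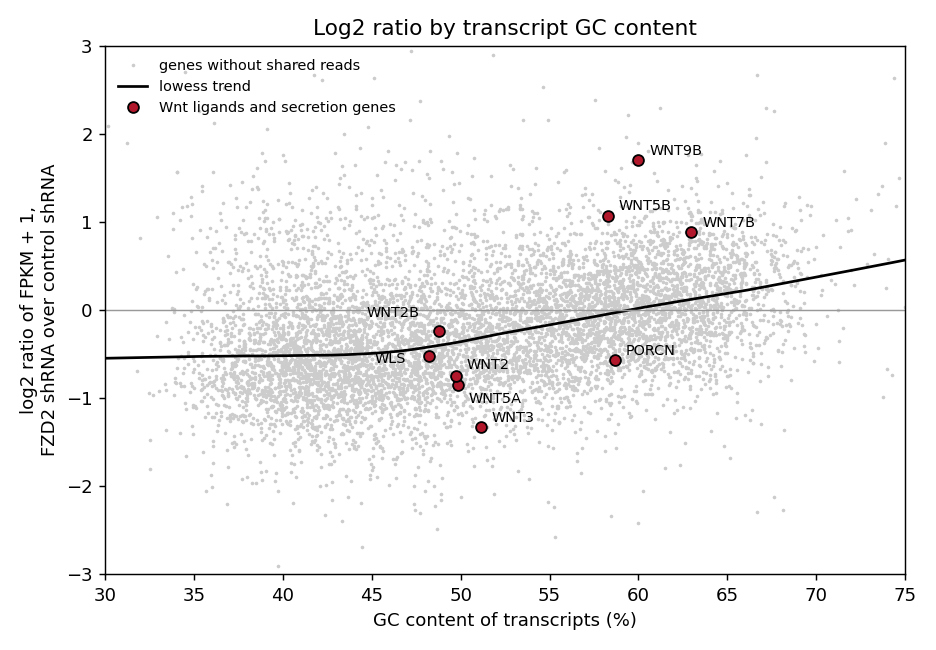
Log2 ratio of FPKM + 1, FZD2 shRNA over control, against the GC content of each gene's transcripts in percent, for measured genes without shared reads (grey), their lowess trend (black line) and the 9 genes described here (red). WNT9B (1.70) and WNT5B (1.07) lie above the trend and WNT3 (-1.33) below it.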

How the data were processed

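RNA was measured in 1 library per group. Per the submitters' processing notes, Bowtie2, HISAT and the build hg19 were used, without stated roles. The sources used here do not give the counting program, annotation or strand setting. Expected counts, per the file headers, are the authors' estimates of reads and can be fractions. FPKM, also as deposited, divides them by length and library size. Where 1 file did not list a gene, its value was taken as 0. Symbols came from the RefSeq table (GRCh38.p14) by gene identifier, and 53 measured genes had none.

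The members and lists were chosen with earlier results of these data known. Log2 ratios used a pseudocount of 1 FPKM without rescaling, a gene was measured at 1 FPKM in either library, and 2-fold was the size called. Expected counts were rounded to whole numbers for exact conditional binomial intervals of count ratios and exact Poisson intervals of levels (95%). The deposited per-gene length, reported as other, is in bases. Intervals take each read as an independent molecule, which reads copied in amplification are not, and 3 counts are 3.64e-05% of the FZD2 shRNA library and 3.56e-05% of the control. A gene had shared reads if a count was not whole within 0.001. GC content came from GENCODE release 29 transcripts matched by accession (96.1% of measured genes), with a lowess trend of fraction 0.3. Promoter windows came from RefSeq. The calls and intervals were tested on simulated independent Poisson counts. Those had no shared reads, copied reads, GC trend or spread between replicates, so the test says nothing on these limits. Named genes were the 9 members, FZD2 and, in each list, those past 2-fold and the 2 highest in the control, and others are marked where they appear. The planned protein comparison was not run. Part of the prostate marker list is not reported here. Python 3.11.15, pandas 2.3.3, SciPy 1.17.1, statsmodels 0.14.6 and edgeR 4.0.16 (TMM factors only) were used.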

Additional observations from a re-analysis of the deposited data

How the results depend on the processing

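Across pseudocounts of 0.1 and 5, filters, TPM, TMM, CPM, a median ratio set to 0, the GC trend taken out and genes without shared reads, 8 of the 9 genes kept their direction in every setting that gave a value, and WNT2B turned to 0.16 with the GC trend taken out. Pseudocounts, filters and leaving out genes with shared reads cannot turn a direction, so for those settings this was fixed in advance. TMM and a median ratio set to 0 shifted ratios little, with the median of all genes at 0.008 and 0.000, beside -0.004 before. WNT5B ranged from 1.04 to 1.24 and stayed past 2-fold in each setting. The members at least 2-fold higher (2) became 1 with a pseudocount of 5 or without shared reads, and 0 at 4-fold, and were 3, with WNT7B, in TPM, at 1.5-fold and by the counting interval. Those at least 2-fold lower (1) became 3 with a pseudocount of 0.1 or at 1.5-fold, 2 in CPM, 5 by the counting interval, and 0 with a pseudocount of 5, a filter of 5 FPKM or 4-fold. Over all genes, 2190 higher became 941 with a pseudocount of 5, 342 without shared reads and 2913 in TPM. The higher genes were 3749 at 1.5-fold, 382 at 4-fold and 5111 by the counting interval. The 1066 lower became 1752 with a pseudocount of 0.1, 301 with one of 5 and 348 with the GC trend taken out. The lower genes were 1454 in CPM and 797 with a filter of 5 FPKM. They were 3121 at 1.5-fold, 59 at 4-fold and 5288 by the counting interval. Taking out the GC trend moved the median of all genes by 0.23 and TPM by 0.14. FZD2 was at -1.63 with a pseudocount of 5 and -2.04 with the GC trend taken out. Larger or smaller sizes and filters change these counts by construction, and for the other settings the cause was not tested. No paired analysis was possible because each group had 1 library. WNT3, WNT2B, WNT2 and PORCN rest on under 100 reads in each library, which limits their precision.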
